A study of Rattus norvegicus with 6 samples.

Results

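The genes described here make and use the cell's main thiol antioxidants: glutathione, the peroxiredoxins and the thioredoxins, with superoxide dismutases, catalase, and NRF2 (gene Nfe2l2) with 2 of its classical target genes. They were chosen by a rule on gene symbols alone, set with earlier results of these data known. The rule took every entry named as a glutathione S-transferase, microsomal glutathione S-transferase, glutathione peroxidase, peroxiredoxin or thioredoxin-family gene, Sod1 to Sod3, Gclc, Gclm, Gss, Gsr, Cat, Nqo1, Hmox1 and Nfe2l2. It found 68 of the 27217 genes in the table, of which 59 were detected well enough to be tested. RNA from RCS cells, a permanent line grown from a rat chondrosarcoma (a cartilage tumour), was compared with RNA from neonatal rat rib, with 3 libraries of each. The series text calls the replicates biological, but does not say which cultures or animals they came from, so p-values measure the spread between these libraries. The labels also give no strain, sex or exact age for the rib donors, and the line is a single tumour line, so a difference between tumour and normal, culture and tissue, or 1 cell type and several cannot be told apart. The study's title concerns the cartilage transcription factors SOX9, SOX5 and SOX6, and neither group carried a treatment in the labels.

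Glutathione is a cysteine-containing tripeptide made in successive steps by glutamate-cysteine ligase and glutathione synthetase, and kept reduced by glutathione reductase with NADPH. Glutathione peroxidases use it to reduce peroxides, and glutathione S-transferases join it to reactive compounds. Peroxiredoxins reduce peroxides with their own cysteines and are recharged by thioredoxin, which thioredoxin reductase, a selenoprotein, keeps reduced with NADPH. Many of these genes are targets of the transcription factor NRF2, which the adaptor KEAP1 holds back and marks for degradation until oxidants or electrophiles modify KEAP1. Cartilage lacks blood vessels and is low in oxygen, and its cells carry both systems.

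Values were read as normalized counts, which are read counts divided by 1 factor per library. The table is labelled RPKM, a unit per gene length, but the low values of a library fall on steps shared between genes, which points to values with gene length not divided out. The unit is therefore an inference. Levels were not compared between genes, except to name the member with the highest mean of each role group, a ranking that gene length can affect. Differences are on the log2(normalized count + 1) scale, RCS cells minus rib tissue. Values of the libraries of a group are given in the order of replicates 1, 2 and 3. All 6 libraries were shallow, with an estimated 6000000 to 8520000 gene reads per library for RCS cells and 5320000 to 7490000 for rib tissue. A gene listed at 0 had a normalized count of 1 at most, which is up to 1.93 reads in the deepest library. Several members, such as Prdx1 and Txn1, have processed pseudogenes elsewhere in the genome, and how reads matching them were counted is not known here. Libraries of a group had correlations of 0.969 to 0.994 across genes, and libraries of different groups 0.650 to 0.690. Of 12 chondrocyte marker genes, all 12 were detected in both groups, and their normalized counts summed to between 73316 and 98942 for RCS cells and between 125024 and 204110 for rib tissue; 2 were called higher in RCS cells, 3 lower and 7 neither.

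Markers of other cell types were high in the rib libraries and low or at 0 in RCS cells. All 11 skeletal muscle markers tested were called lower in RCS cells, with Myog and Myod1 listed at 0 in every RCS library, and their sum was 148 to 181 normalized counts in RCS cells and 46543, 39147 and 25893 in rib replicates 1 to 3. Macrophage markers summed to 84.7 to 96.4 in RCS cells and 2739, 2754 and 1542 in rib tissue; 11 of 11 tested were called lower, with Cd163, Adgre1, C1qa, C1qb, C1qc and Fcgr3a at 0 in every RCS library. Adipocyte markers summed to 289 to 323 in RCS cells and 4096, 4141 and 2069.9 in rib tissue (11 of 12 called lower, Lep, Lpl, Cd36, Cfd and Retn at 0 in RCS cells), and erythroid markers to 111 to 153 in RCS cells and 2318, 1411 and 527 in rib tissue (7 of 10 lower, 1 higher, Hba-a1, Hbb and Hbb-b1 at 0). Fibroblast markers summed to 970.1 to 997 in RCS cells and 92659, 61137 and 50163 in rib tissue (11 of 12 called lower, Dcn, Dpt and Mfap5 at 0 in RCS cells). Endothelial markers summed to 733 to 766 in RCS cells and 4864, 5661 and 3558 in rib tissue (11 of 12 called lower, Cdh5, Kdr, Tie1, Cldn5, Emcn and Robo4 at 0 in RCS cells). Rib replicate 3 was the lowest rib library for all 6 of these sums. The part these cells play in the differences below was not tested, and in bulk tissue fewer cells of a type and less RNA per cell cannot be told apart.

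Most of the thiol antioxidant genes differed between RCS cells and rib tissue, and more of them were higher than lower. Of the 59 tested, 26 were called higher in RCS cells (44.1%), 18 were called lower (30.5%) and 15 passed in neither direction, by limma at a Benjamini-Hochberg adjusted p under 0.05 over all genes tested. Over the 16809 genes tested in the whole table the shares were 32.9% higher and 43.6% lower. Calls in either direction made up 74.6% of the members and 76.5% of all genes, so the share called was near the background. With a 2-fold limit 9 members were higher (15.3%; 14.1% of all genes) and 13 lower (22.0%; 33.1% of all genes). The median difference was 0.41 over the members and -0.15 over all genes. Neither figure was free of the scaling: quantile normalization moved the median of all genes by 0.47, and calls were then 36 higher and 14 lower among members and 8000 higher and 4924 lower among all genes (5536 higher and 7324 lower as deposited), while scaling to the library median moved it by 0.29 and gave 33 higher and 15 lower members and 7121 higher and 6248 lower genes. The members' median stood above that of all genes by 0.56 as deposited, by 0.42 after quantile normalization and by 0.56 after median scaling.

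**Figure D1:**
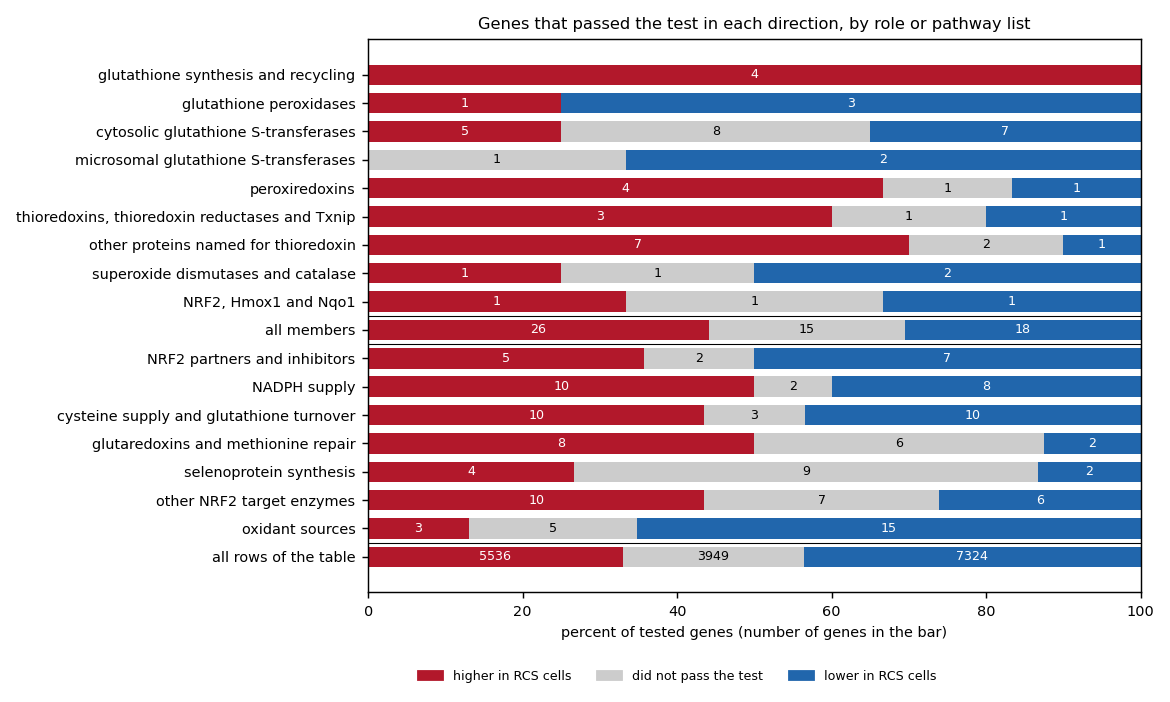
Percent of tested genes that were called higher in RCS cells (red), did not pass (grey) or were called lower (blue) by limma at an adjusted p under 0.05, for each role group, all 59 tested members, each pathway list and all genes tested; numbers in the bars are gene counts. All 4 genes of glutathione synthesis and recycling were called higher. The group labelled cytosolic glutathione S-transferases was divided, with 5 higher, 7 lower and 8 neither, and its higher genes include the mitochondrial and peroxisomal Gstk1.

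By role, all 4 genes of glutathione synthesis and recycling were called higher in RCS cells, as were 4 of 6 peroxiredoxins, 3 of 5 thioredoxin and thioredoxin reductase genes (Txnip counted among them) and 7 of 10 other proteins named for thioredoxin. Glutathione peroxidases (1 higher, 3 lower of 4 tested) and microsomal transferases (2 lower of 3) had more genes called lower than higher. The same was true of superoxide dismutases with catalase (1 higher, 2 lower of 4) and of all genes tested (43.6% lower, 32.9% higher). With so few genes per group, no direction of a group is read from these counts. Under quantile normalization or median scaling no called gene among the 37 members named by rule changed sign. Outside those 37, the called genes GSTA6 (0.15) and Gstm6 (0.057) changed sign under quantile normalization. Called members that lost a call or changed sign are named beside their values. Of the 9 genes not tested, 7 were listed at 0 in all 6 libraries: Gpx5, Gpx6, Gsta2, Gstt4, Txndc8, the GSTO2 entry in capitals and an additional Gstm5 entry (ENSRNOG00000049743). The others were Gsta3, at 0, 0 and 2.25 in RCS cells and 0, 2.05 and 0 in rib tissue, and Txndc2, at 0 in every RCS library and at 0, 3.08 and 5.0 in rib tissue. Tested genes at 0 in every RCS library were Sod3 and Gstm6, which entered the test through rib tissue alone.

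**Figure D2:**
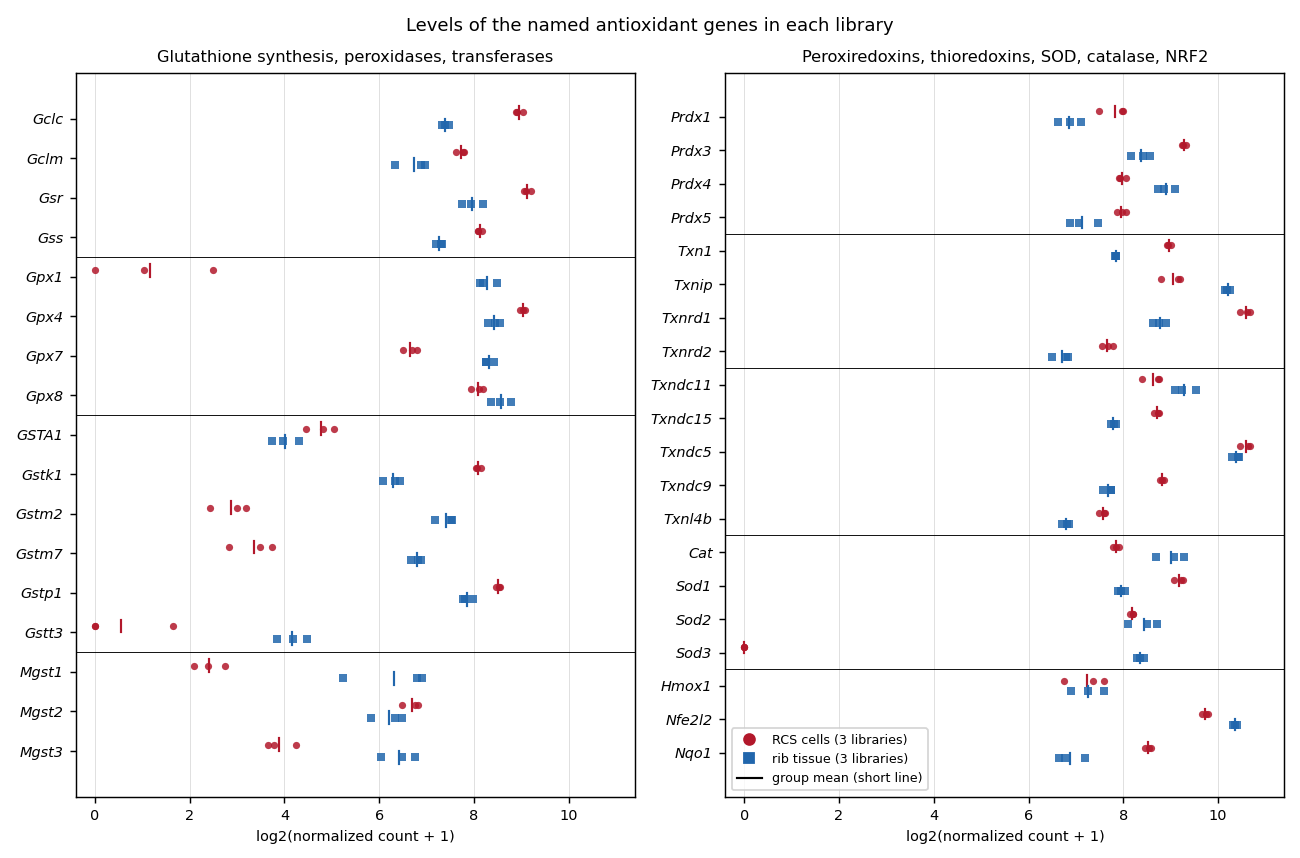
Log2(normalized count + 1) of the members named by rule in each library, with RCS cells (red circles) above rib tissue (blue squares), 3 points per group and a short line at the group mean. Txnrd1 and Gclc sit higher in all 3 RCS libraries than in any rib library, and Sod3 and Gpx1 sit at or near 0 in RCS cells.

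NRF2 itself was lower in RCS cells, while its classical target Nqo1 was higher and Hmox1 did not differ beyond its spread. Nfe2l2 (ENSRNOG00000001548), the gene of NRF2, had 856, 879 and 808 normalized counts in RCS cells, against 1305, 1358 and 1277 in rib tissue. All RCS libraries lay below all rib libraries, and the gene was 1.55-fold lower in RCS cells (log2 difference -0.63, SE 0.073, adjusted p = 7.3e-05). NRF2 is controlled mostly through the stability of its protein, which RNA does not show. Nqo1 (ENSRNOG00000012772), a quinone reductase used as a readout of NRF2 activity, had 370.1, 351 and 384 normalized counts in RCS cells, against 98.6, 108 and 146 in rib tissue. It was 3.16-fold higher in RCS cells (log2 difference 1.66, SE 0.15, adjusted p = 1.53e-05) with no overlap of the groups. Hmox1, the inducible enzyme that breaks down heme, had 107, 193 and 163 normalized counts in RCS cells, against 151, 193 and 118 in rib tissue. The groups overlapped throughout (log2 difference -0.01, 95% interval -0.58 to 0.56, adjusted p = 0.972), and the sign turned to 0.23 without RCS replicate 1 and to 0.17 without rib replicate 2, and to 0.20 with quantile normalization and 0.28 with median scaling.

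The enzymes that make and recycle glutathione were higher in RCS cells at all 4 genes, and this held under each alternative that was run. Gclc, the catalytic subunit of glutamate-cysteine ligase and the rate-limiting step, had 526, 479 and 472 normalized counts in RCS cells, against 159, 176 and 166 in rib tissue. It was 2.93-fold higher in RCS cells (log2 difference 1.55, SE 0.086, adjusted p = 1.12e-06). Gclm, the modifier subunit that raises the efficiency of Gclc, had 222, 218 and 195 normalized counts in RCS cells, against 125, 117 and 79.4 in rib tissue, a 2.002-fold difference (log2 difference 1.001, SE 0.17, adjusted p = 0.000871). The catalytic subunit therefore differed by more on the log2 scale than the modifier subunit, a difference between genes that was not tested. Gss, glutathione synthetase, had 272, 271 and 287 normalized counts in RCS cells, against 156, 145 and 159 in rib tissue (1.8-fold, log2 difference 0.85, SE 0.088, adjusted p = 4.05e-05). Gsr, the reductase that returns oxidized glutathione to its reduced form, had 587, 544 and 533 normalized counts in RCS cells, against 289.5, 244 and 215 in rib tissue (2.23-fold, log2 difference 1.16, SE 0.12, adjusted p = 3.13e-05). The lowest RCS library exceeded the highest rib library at each of these genes.

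NRF2 acts with small MAF proteins at antioxidant response elements, and the core letters TGACNNNGC were searched on both strands of promoters, taken as 250 bases before to 50 bases after the annotated start. RefSeq's promoters for the rat assembly GRCr8 held an entry for 56 members, with 55 distinct sequences; the table's own build is rn5, so coordinates here belong to the sequences and not to the table. The core was present in 17 of 55 member promoters (30.9%) and in 3342 of all 27457 promoters (12.2%). By direction, it was found in 6 of 22 promoters of genes higher in RCS cells (27.3%), 5 of 15 of genes lower (33.3%) and 4 of 11 of genes in neither class (36.4%). The AP-1 site TGANTCA, which can overlap that core, was in 5 of 55 member promoters (9.09%) and 2012 of all promoters (7.33%), and 114 of 3615 core matches overlapped an AP-1 match. A match is only a run of letters in this window, and NRF2 sites can lie farther away. The promoters given are of 1 gene each of glutathione synthesis (Gclm), conjugation (Gstp1) and peroxide removal (Prdx1) that were higher in RCS cells and hold a match, of Prdx4, which was lower and also holds a match, and of Nqo1, which was higher and holds none. Each is written 5′ to 3′ on the gene's strand, with the core match in capitals.
Gclm promoter, GRCr8 chr2:213031885-213032184, plus strand: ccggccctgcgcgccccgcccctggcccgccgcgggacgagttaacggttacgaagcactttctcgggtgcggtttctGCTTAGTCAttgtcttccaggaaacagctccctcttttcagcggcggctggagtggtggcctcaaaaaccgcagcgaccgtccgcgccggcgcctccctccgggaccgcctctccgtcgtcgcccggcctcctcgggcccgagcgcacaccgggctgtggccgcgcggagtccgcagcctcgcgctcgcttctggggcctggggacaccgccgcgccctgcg
Gstp1 promoter, GRCr8 chr1:210769656-210769955, minus strand: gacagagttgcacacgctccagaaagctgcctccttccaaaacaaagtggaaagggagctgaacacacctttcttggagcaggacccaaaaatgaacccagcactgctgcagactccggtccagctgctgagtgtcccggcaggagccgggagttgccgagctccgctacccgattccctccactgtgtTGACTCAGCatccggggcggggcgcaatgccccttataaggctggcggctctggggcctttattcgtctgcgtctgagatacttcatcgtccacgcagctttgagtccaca
Prdx1 promoter, GRCr8 chr5:135383656-135383955, plus strand: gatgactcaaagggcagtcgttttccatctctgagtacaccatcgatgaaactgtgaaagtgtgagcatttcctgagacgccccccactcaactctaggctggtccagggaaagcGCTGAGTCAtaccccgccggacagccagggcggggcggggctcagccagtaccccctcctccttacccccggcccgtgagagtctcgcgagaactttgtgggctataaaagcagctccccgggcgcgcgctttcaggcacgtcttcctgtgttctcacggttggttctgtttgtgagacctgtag
Prdx4 promoter, GRCr8 chrX:43878483-43878782, plus strand: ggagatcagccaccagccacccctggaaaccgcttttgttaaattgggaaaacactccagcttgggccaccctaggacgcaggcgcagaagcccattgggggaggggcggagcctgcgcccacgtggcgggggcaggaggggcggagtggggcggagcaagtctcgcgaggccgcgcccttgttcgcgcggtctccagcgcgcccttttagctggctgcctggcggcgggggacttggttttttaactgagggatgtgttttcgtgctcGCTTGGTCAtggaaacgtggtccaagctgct
Nqo1 promoter, GRCr8 chr19:52220218-52220517, minus strand: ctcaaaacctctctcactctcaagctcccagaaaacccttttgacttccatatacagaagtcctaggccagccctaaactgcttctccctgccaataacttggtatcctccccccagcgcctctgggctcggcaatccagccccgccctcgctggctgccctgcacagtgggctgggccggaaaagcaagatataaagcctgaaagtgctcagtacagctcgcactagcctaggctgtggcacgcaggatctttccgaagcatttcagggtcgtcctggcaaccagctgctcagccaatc
Counted from the start, with bases before it negative, the matches begin at -172 in Gclm (TGACTAAGC on the opposite strand), at -61 in Gstp1 (TGACTCAGC on the gene's strand), at -135 in Prdx1 (TGACTCAGC on the opposite strand) and at 20 in Prdx4 (TGACCAAGC on the opposite strand). The Gstp1 and Prdx1 matches hold the same 9 letters, which begin with TGACTCA and so overlap an AP-1 match.

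Glutathione peroxidases went in opposite directions, and the most familiar of them, Gpx1, was nearly missing from RCS cells. Gpx1 (ENSRNOG00000048812), the cytosolic and mitochondrial selenoenzyme that reduces hydrogen peroxide, had 0, 1.04 and 4.6 normalized counts in RCS cells, against 356, 293 and 278 in rib tissue. The groups stood far apart (log2 difference -7.10, SE 0.55, adjusted p = 7.18e-06), and no fold is given because its RCS mean was under 10. The size of that difference depended on the libraries and the pseudocount, at -6.51 without RCS replicate 1, -7.75 without RCS replicate 3, -8.56 with a pseudocount of 0.1 and -5.89 with quantile normalization, and the call held in each. Gpx4, the selenoenzyme that reduces lipid hydroperoxides in membranes and holds back ferroptosis, had 504, 535 and 526 normalized counts in RCS cells, against 372, 345 and 315 in rib tissue. It was 1.52-fold higher in RCS cells (log2 difference 0.60, SE 0.086, adjusted p = 0.000263), the only member of the family tested that was called higher.

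The peroxidases Gpx7 and Gpx8, which lack selenocysteine and sit in the endoplasmic reticulum, were both lower in RCS cells. Gpx7 had 109.5, 89.1 and 102 normalized counts in RCS cells, against 304, 303 and 342 in rib tissue (3.14-fold lower, log2 difference -1.65, SE 0.11, adjusted p = 3.47e-06). Gpx8 had 243, 276 and 292 normalized counts in RCS cells, against 328, 375 and 438 in rib tissue (log2 difference -0.48, SE 0.12, adjusted p = 0.00711). The Gpx8 groups did not overlap, but median scaling ended its call (log2 difference -0.19, adjusted p = 0.209). Gpx5 and Gpx6, known from the epididymis and the olfactory epithelium, were listed at 0 in all libraries. No entry carried the symbol Gpx2 or Gpx3, so these counts do not cover the whole family.

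Grouped by symbol as cytosolic, with Gstk1 included although it is not cytosolic, the 25 glutathione S-transferases were divided. Among the 20 tested, 5 were called higher, 7 lower and 8 neither. Several of them are near-identical copies in gene clusters, the alpha and mu classes above all, so their reads may have been split or shared between copies, and their values are uncertain. Gstk1, the mitochondrial and peroxisomal kappa enzyme, had 268, 281 and 263 normalized counts in RCS cells, against 79.7, 67.1 and 85.6 in rib tissue. It was 3.48-fold higher in RCS cells (log2 difference 1.798, SE 0.12, adjusted p = 3.06e-06). Gstp1, the pi enzyme that is often abundant in tumours, had 352, 370.0 and 374 normalized counts in RCS cells, against 224, 216 and 253 in rib tissue (1.58-fold higher, log2 difference 0.66, SE 0.09, adjusted p = 0.000198), a smaller difference of the same sign. Both groups were tight at Gstp1, and no RCS library came near a rib library. Gsto1, an omega enzyme with thiol transferase activity, had 276, 259 and 277 normalized counts in RCS cells, against 183, 176 and 162 in rib tissue (1.56-fold higher, log2 difference 0.64, SE 0.091, adjusted p = 0.000267). Theta and alpha enzymes also conjugate glutathione to electrophiles, and 1 entry of each class was called higher. The GSTT2 entry, a theta enzyme, had 108, 108 and 119.8 normalized counts in RCS cells, against 78.7, 82.9 and 83.1 in rib tissue (log2 difference 0.45, SE 0.12, adjusted p = 0.00832). The GSTA1 entry in capitals (ENSRNOG00000050464), an alpha enzyme, had 32.1, 20.8 and 27.1 normalized counts in RCS cells, against 12.4, 14.6 and 18.9 in rib tissue (log2 difference 0.76, SE 0.27, adjusted p = 0.0296). Its groups did not overlap, but the call was lost without RCS replicate 1 (0.62, adjusted p = 0.119), RCS replicate 3 (0.74, 0.0798), rib replicate 1 (0.63, 0.0798) or rib replicate 2 (0.74, 0.0697), and quantile normalization raised the difference to 2.68.

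The mu class had no gene called higher and 4 called lower among 8 tested, and they included the largest decrease among the cytosolic transferases. Gstm2, known in humans as the muscle form, had 4.35, 7 and 8.15 normalized counts in RCS cells, against 143, 185 and 181 in rib tissue. It was lower in RCS cells by a wide margin (log2 difference -4.53, SE 0.25, adjusted p = 1.15e-06), with no fold given because its RCS mean was under 10. Skeletal muscle markers were called lower at 11 of 11 and summed least in rib replicate 3, where Gstm2 was not the lowest, and their part in the difference was not tested. Gstm7, in the same gene cluster, had 10.3, 12.4 and 6.15 normalized counts in RCS cells, against 101, 111 and 118 in rib tissue (log2 difference -3.43, SE 0.27, adjusted p = 6.98e-06). The lowest rib library exceeded the highest RCS library several times over at both genes, and quantile normalization made the differences smaller, at -3.39 for Gstm2 and -2.21 for Gstm7. Gstm6 was listed at 0 in all RCS libraries and at 2.01, 2.05 and 7.83 in rib tissue, close to the detection limit, and quantile normalization turned its sign (0.057). Gstm4 had 94.2, 112 and 132 normalized counts in RCS cells, against 138, 150.2 and 165 in rib tissue, and its call (log2 difference -0.43, SE 0.15, adjusted p = 0.0289) was lost under both scalings (-0.14 each) and without RCS replicate 1 or 2 or rib replicate 2 or 3 (adjusted p 0.0762 to 0.111). Gstm1 pointed the other way with 89.9, 70.8 and 83.2 normalized counts in RCS cells, against 43.2, 62.8 and 69 in rib tissue and missed the threshold (log2 difference 0.49, 95% interval 0.016 to 0.97, adjusted p = 0.0572), with a call without rib replicate 3 (0.63) and under both scalings (1.46 with quantile normalization, 0.78 with median scaling). In GRCr8 these genes lie side by side on chromosome 2, in the order Gstm5, Gstm6l, Gstm7, Gstm6, Gstm3l1, Gstm3, Gstm2, Gstm1, Gstm4, so the lower genes Gstm2 and Gstm4 lie on either side of Gstm1. The mu genes together summed to 275 to 314 normalized counts in RCS cells and 489, 582 and 634 in rib tissue.

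Of the remaining transferases, Gstt3, a theta enzyme, had 0, 0 and 2.13 normalized counts in RCS cells, against 21.1, 13.3 and 17.2 in rib tissue (log2 difference -3.62, SE 0.48, adjusted p = 0.000181); quantile normalization ended its call (-1.23, adjusted p = 0.0536) and a pseudocount of 0.1 gave -5.92. Gstz1, the zeta enzyme of tyrosine breakdown, had 58.1, 65.4 and 75.3 normalized counts in RCS cells, against 126, 133 and 149 in rib tissue (2.04-fold lower, log2 difference -1.03, SE 0.14, adjusted p = 0.000242). Its groups were well separated. The GSTA6 entry had 8.56, 8.82 and 14.2 normalized counts in RCS cells, against 22.2, 51.7 and 42.7 in rib tissue (log2 difference -1.74, SE 0.36, adjusted p = 0.00235), and its sign turned under quantile normalization (0.15, adjusted p = 0.755). The 8 genes in neither class were Gstm1 and Gsta1, Gsta4, Gstm3, the detected Gstm5 entry, Gstm6l, Gsto2 and Gstt1. Of these, Gstt1 came closest to a call, with 40.2, 39.7 and 42.6 normalized counts in RCS cells, against 17.8, 29.6 and 33 in rib tissue (adjusted p = 0.0521). Its RCS libraries all lay above its rib libraries, and it was called without rib replicate 3 (0.80) and under quantile normalization (2.26) and median scaling (0.92). Gsta1 was called under the same scalings (2.02 and 0.82), Gsta4 and Gstm5 under quantile normalization alone of the scalings (2.57 and 0.95), and Gstm3 and Gsto2, both low, differed by -0.10 and -0.049 as deposited and by 2.06 and 2.58 under quantile normalization. Gstm6l, also low, had 0, 0 and 1.48 normalized counts in RCS cells, against 0, 2.82 and 1.92 in rib tissue (log2 difference -0.72, adjusted p = 0.285), and its difference was 1.08 under quantile normalization and -1.30 without rib replicate 1 (adjusted p = 0.0456).

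Microsomal glutathione S-transferases are membrane enzymes, unrelated in sequence to the cytosolic ones. Mgst1, which protects membranes of the endoplasmic reticulum and mitochondria, had 3.27, 5.71 and 4.25 normalized counts in RCS cells, against 111, 118 and 36.7 in rib tissue. It was far lower in RCS cells (log2 difference -3.90, SE 0.45, adjusted p = 7.93e-05; -2.28 with quantile normalization). Mgst3 had 11.6, 17.9 and 12.8 normalized counts in RCS cells, against 107, 88.3 and 64.2 in rib tissue (5.76-fold lower, log2 difference -2.53, SE 0.26, adjusted p = 3.93e-05; -1.25 with quantile normalization), and neither gene's groups overlapped. In both genes rib replicate 3 was the lowest rib library, as it was for the summed markers of the other rib cell types, whose part in these differences was not tested. Mgst2, which can make leukotriene C4, had 88.7, 107 and 112 normalized counts in RCS cells, against 55.8, 88.4 and 79.4 in rib tissue. Every RCS library was just above every rib library, but the test was missed (log2 difference 0.48, 95% interval 0.024 to 0.93, adjusted p = 0.0537). It was called without rib replicate 2 (0.61, adjusted p = 0.0381) and under quantile normalization (1.19) and median scaling (0.77).

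**Figure D3:**
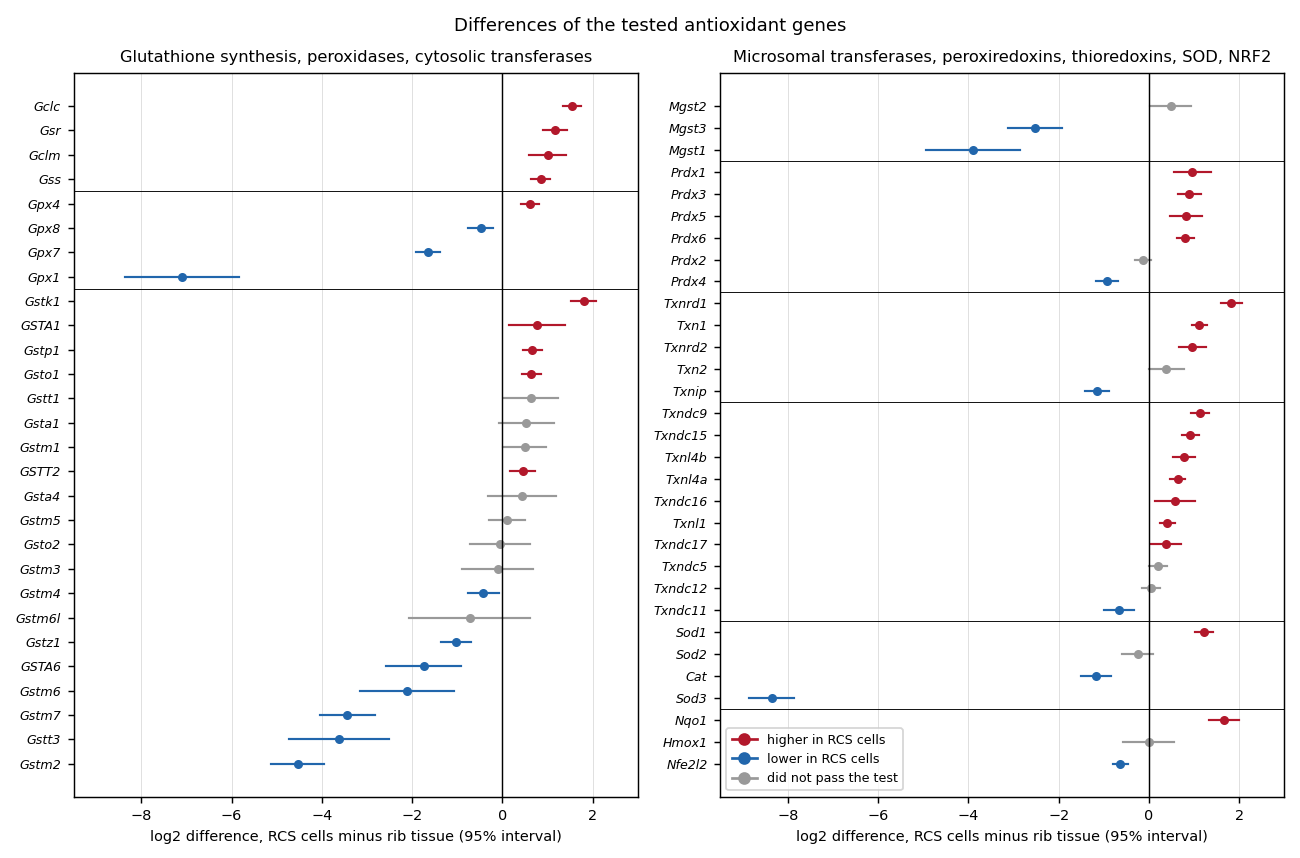
Log2 difference (RCS cells minus rib tissue) of each tested member with its 95% interval, by role group, coloured by call (red higher, blue lower, grey neither). Members with intervals right of 0 include Txnrd1 at 1.83 and Gstk1 at 1.798, and the members farthest left are Sod3 at -8.36 and Gpx1 at -7.10.

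Peroxiredoxins were higher in RCS cells at 4 of 6 genes, and the secretory-pathway member was lower. Prdx1, the abundant cytosolic peroxiredoxin, had 251, 253 and 179 normalized counts in RCS cells, against 136, 116 and 96.8 in rib tissue (1.94-fold higher, log2 difference 0.96, SE 0.18, adjusted p = 0.0012). Prdx3, the mitochondrial member that relies on mitochondrial thioredoxin, had 602, 611 and 637 normalized counts in RCS cells, against 379, 343 and 284 in rib tissue (1.85-fold higher, log2 difference 0.89, SE 0.11, adjusted p = 0.000121). Prdx5, found in mitochondria, peroxisomes and the cytosol, had 264, 249.04 and 232 normalized counts in RCS cells, against 175, 133 and 116 in rib tissue (1.77-fold higher, log2 difference 0.83, SE 0.15, adjusted p = 0.00125). The groups were separate at each of these genes. Prdx6, the 1-cysteine member that uses glutathione and also acts as a phospholipase, had 494, 503 and 444 normalized counts in RCS cells, against 279, 275 and 268 in rib tissue (1.75-fold higher, log2 difference 0.80, SE 0.081, adjusted p = 3.4e-05). The 4 higher genes thus lay within a narrow band, 1.75-fold to 1.94-fold. Prdx4, which works in the endoplasmic reticulum and passes oxidizing power on to protein folding, had 245, 240.0 and 266 normalized counts in RCS cells, against 424, 465 and 544 in rib tissue, and was 1.90-fold lower in RCS cells (log2 difference -0.92, SE 0.11, adjusted p = 7.74e-05). Its highest RCS library was below its lowest rib library. Prdx2, the cytosolic form best known from red blood cells, had 355, 383 and 355 normalized counts in RCS cells, against 413, 409 and 377 in rib tissue, and the groups overlapped (log2 difference -0.13, 95% interval -0.32 to 0.051, adjusted p = 0.159), with the sign turned under median scaling (0.16). Rib replicates 1 to 3 stood in the same order for Prdx2 as for the summed erythroid markers (2318, 1411 and 527). That order was not particular to them: the summed skeletal muscle and fibroblast markers shared it. Prdx1, Prdx3, Prdx5 and Prdx6 also fell from rib replicate 1 to 3, and Prdx4 rose. The part of any of these cells in the Prdx2 values was not tested.

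The cytosolic thioredoxin pair was higher in RCS cells, and the thioredoxin-binding protein Txnip was lower. Txnrd1, cytosolic thioredoxin reductase, had 1642, 1573 and 1414 normalized counts in RCS cells, against 432, 479.8 and 394 in rib tissue. At 3.54-fold (log2 difference 1.83, SE 0.10, adjusted p = 9.41e-07) it had the largest log2 difference among members higher in RCS cells, on the deposited scale. Txn1, cytosolic thioredoxin, had 509.8, 481 and 495 normalized counts in RCS cells, against 227, 230.0 and 229 in rib tissue (2.16-fold higher, log2 difference 1.11, SE 0.073, adjusted p = 2.79e-06). The mitochondrial pair was less uniform. Txnrd2, the mitochondrial reductase, had 218, 186 and 204 normalized counts in RCS cells, against 89.1, 113 and 109 in rib tissue (1.95-fold higher, log2 difference 0.96, SE 0.13, adjusted p = 0.00018). Txn2, mitochondrial thioredoxin, had 354, 356 and 314 normalized counts in RCS cells, against 331, 267 and 201 in rib tissue, and the groups overlapped because rib replicate 1 reached 331 (log2 difference 0.38, 95% interval -0.007 to 0.77, adjusted p = 0.068). It was called without rib replicate 1 (0.55, adjusted p = 0.0127), under quantile normalization (0.42) and under median scaling (0.67). Txnip, an arrestin-like protein that binds thioredoxin and limits glucose uptake, had 445, 568 and 587 normalized counts in RCS cells, against 1172, 1226 and 1128 in rib tissue. It was 2.22-fold lower in RCS cells (log2 difference -1.15, SE 0.11, adjusted p = 2.84e-05), with no overlap of the groups.

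Other proteins named for thioredoxin carry a thioredoxin fold but do different work, and 7 of 10 tested were called higher. Txndc9, a cofactor of the chaperonin that folds tubulin and actin, had 434, 447 and 464 normalized counts in RCS cells, against 189, 213 and 212 in rib tissue (2.19-fold higher, log2 difference 1.13, SE 0.085, adjusted p = 5.99e-06). Txndc15, a membrane protein linked to cilium function, had 425, 432 and 399.7 normalized counts in RCS cells, against 228, 213 and 222 in rib tissue (1.89-fold higher, log2 difference 0.92, SE 0.079, adjusted p = 1.33e-05). Txnl4a is a spliceosome protein, and Txnl4b is related to Txnl4a. Txnl4b had 178, 191 and 196 normalized counts in RCS cells, against 103, 114 and 111 in rib tissue (log2 difference 0.78, SE 0.10, adjusted p = 0.000173), and Txnl4a also lay higher in all RCS libraries (log2 difference 0.64, adjusted p = 6.84e-05). Txnl1, a proteasome-associated thioredoxin, was higher by 0.41 on the log2 scale (adjusted p = 0.00106). Txndc16 (0.58, adjusted p = 0.0224) and Txndc17 (0.37, adjusted p = 0.0442) were called with little margin. Txndc16 lost its call without RCS replicate 2 (adjusted p = 0.0599) or 3 (0.0841). Txndc17 lost it without RCS replicate 2 or 3 or any rib library (adjusted p 0.0715 to 0.156), at a difference of 0.24 without RCS replicate 3.

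The endoplasmic reticulum proteins Txndc16, Txndc11, Txndc5 and Txndc12 were set side by side after their values were seen. Of these, Txndc16 was called higher, Txndc11 lower, and Txndc5 and Txndc12 neither. The membrane protein Txndc15, called higher, was not placed in this set. Txndc11, which works in oxidative folding, had 427, 430.3 and 335 normalized counts in RCS cells, against 600.4, 542 and 744 in rib tissue and was 1.58-fold lower in RCS cells (log2 difference -0.66, SE 0.14, adjusted p = 0.00306), with the call lost under median scaling (-0.36, adjusted p = 0.0686). Txndc5, a disulfide isomerase with the highest mean of its group, had 1621, 1579.6 and 1408 normalized counts in RCS cells, against 1361, 1246 and 1388 in rib tissue. Its RCS libraries all lay above its rib libraries by a small margin that missed the threshold (log2 difference 0.21, 95% interval 0.0036 to 0.41, adjusted p = 0.0603). It was called without RCS replicate 3 (0.27), under quantile normalization (0.59) and under median scaling (0.50). Txndc12 overlapped, with 262, 285 and 297 normalized counts in RCS cells, against 259, 281 and 272 in rib tissue (log2 difference 0.054, 95% interval -0.15 to 0.25, adjusted p = 0.59), and was called under median scaling (0.35).

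Superoxide dismutases turn superoxide into hydrogen peroxide, which catalase and the peroxidases remove, and the 3 dismutases had different outcomes. Sod1, the copper-zinc enzyme of the cytosol, had 611, 593 and 533 normalized counts in RCS cells, against 261, 247 and 236 in rib tissue (2.33-fold higher, log2 difference 1.22, SE 0.086, adjusted p = 4.24e-06). Sod2, the manganese enzyme of mitochondria, had 295, 296 and 279 normalized counts in RCS cells, against 418, 362 and 274 in rib tissue, and its groups overlapped (log2 difference -0.25, 95% interval -0.59 to 0.085, adjusted p = 0.147). Rib replicate 3 decided this: without it Sod2 was lower in RCS cells (-0.42, adjusted p = 0.00579), while median scaling turned the sign (0.039). Sod3 (ENSRNOG00000003869), the secreted enzyme that binds heparan sulfate in extracellular matrix, had 0, 0 and 0 normalized counts in RCS cells, against 326, 311 and 344 in rib tissue. It was listed at 0 in every RCS library, so the size of its difference (log2 difference -8.36, SE 0.22, adjusted p = 2.67e-08) depends on the pseudocount (-11.7 with 0.1) and no fold is given; with quantile normalization it was -7.21. Cat, the peroxisomal enzyme catalase, had 228, 219 and 240.2 normalized counts in RCS cells, against 539.8, 617 and 409.7 in rib tissue (2.24-fold lower, log2 difference -1.17, SE 0.14, adjusted p = 0.000115). Rib replicate 3 was the lowest rib library for Cat as well, and each rib library still exceeded each RCS library.

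Genes around these systems were read from 7 lists of pathway genes, with 139 genes in the table and 134 tested. Of these, 50 were called higher, 50 lower and 34 neither (median difference 0.05, against -0.15 for all genes). Over all genes tested 32.9% were called higher and 43.6% lower, and the counts of each list here and below are to be read beside these shares. Among 14 NRF2 partners and inhibitors 5 were higher and 7 lower. Keap1, the adaptor that holds NRF2 back, had 332, 331 and 316 normalized counts in RCS cells, against 515, 411 and 459 in rib tissue (1.41-fold lower, log2 difference -0.49, SE 0.10, adjusted p = 0.00181), and median scaling ended the call (-0.20, adjusted p = 0.121). Both Nfe2l2 and its inhibitor were thus lower in RCS cells on the deposited scale. Mafk, a small MAF partner of NRF2, had 409.6, 395 and 402 normalized counts in RCS cells, against 227, 198 and 174 in rib tissue (2.02-fold higher, log2 difference 1.02, SE 0.11, adjusted p = 4.67e-05). The other small MAF genes of the list, named after their values were seen, did not share this. Maff was 3.56-fold lower in RCS cells (log2 difference -1.83, adjusted p = 6.46e-05), and Mafg was in neither class (0.13, adjusted p = 0.335). Bach2, a repressor that competes at the same elements, had 5.99, 3.89 and 6.38 normalized counts in RCS cells, against 108, 142 and 103 in rib tissue (log2 difference -4.22, SE 0.25, adjusted p = 1.69e-06; -2.87 with quantile normalization). Its level in RCS cells was under 10 normalized counts, and no fold is given.

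The cystine importer was much higher in RCS cells, and the other genes of cysteine supply and glutathione turnover went both ways. Slc7a11, the cystine-glutamate exchanger that brings in the cysteine for glutathione, had 321, 250.2 and 271 normalized counts in RCS cells, against 14, 19.5 and 6.48 in rib tissue. It was 21.2-fold higher in RCS cells (log2 difference 4.41, SE 0.34, adjusted p = 7.21e-06; 5.80 with quantile normalization). Its partner chain Slc3a2 was also called higher (log2 difference 0.71, adjusted p = 0.000385). Ggt7, a relative of the gamma-glutamyltransferases, had 353, 324 and 344 normalized counts in RCS cells, against 13, 12.1 and 8.7 in rib tissue (28.2-fold higher, log2 difference 4.82, SE 0.18, adjusted p = 1.42e-07; 6.38 with quantile normalization), whereas Ggt1, the classical enzyme that breaks down extracellular glutathione, was near the detection limit with 0, 2.25 and 1.7 normalized counts in RCS cells, against 10.6, 9.5 and 5.58 in rib tissue. Anpep, an aminopeptidase of the cell surface, had 0, 0 and 1.42 normalized counts in RCS cells, against 272, 326 and 184 in rib tissue (log2 difference -7.57, SE 0.41, adjusted p = 9.3e-07; -6.39 with quantile normalization and -10.0 with a pseudocount of 0.1). Over the list 10 of 23 tested genes were higher and 10 lower. Slc3a2 and Ggt1 were named after their values were seen.

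NADPH supply was called higher at 10 of 20 genes and lower at 8. Mthfd1, a cytosolic folate enzyme that can yield NADPH, had 879, 864 and 772 normalized counts in RCS cells, against 318, 302 and 288 in rib tissue (2.76-fold higher, log2 difference 1.46, SE 0.084, adjusted p = 1.28e-06). Its lowest RCS library was above its highest rib library. Aldh1l2, a mitochondrial folate enzyme that yields NADPH, had 1.57, 0 and 0 normalized counts in RCS cells, against 602, 674 and 822 in rib tissue (log2 difference -8.99, SE 0.38, adjusted p = 2.74e-07; -7.74 with quantile normalization and -11.4 with a pseudocount of 0.1).

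**Figure D4:**
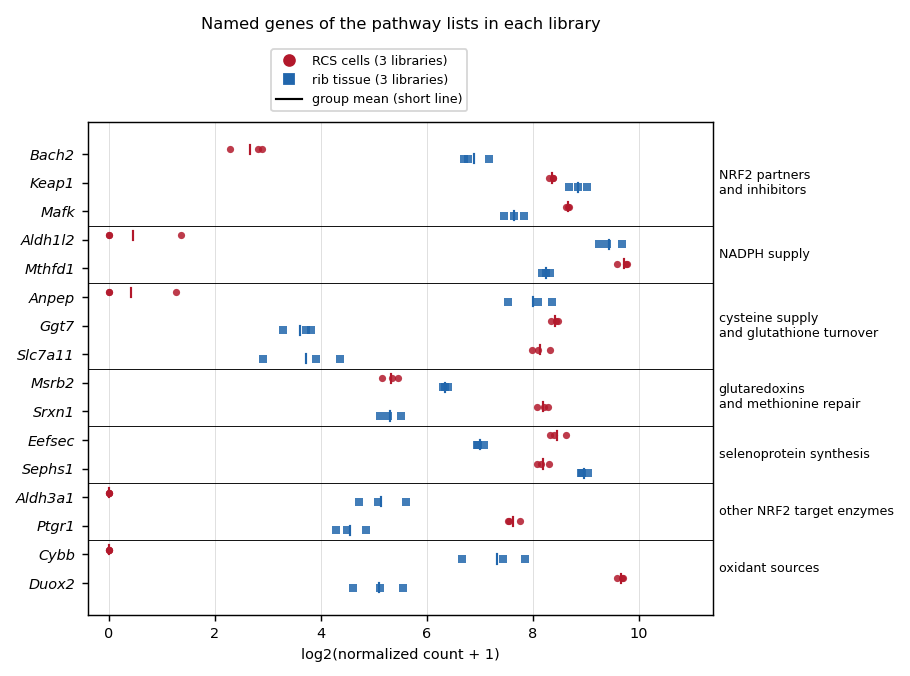
Log2(normalized count + 1) of pathway genes named by rule in each library, with RCS cells (red circles) above rib tissue (blue squares), 3 points per group and a short line at the group mean. Slc7a11, Ggt7, Srxn1 and Duox2 are higher in all 3 RCS libraries, and Cybb and Aldh3a1 are listed at 0 there.

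Among 16 glutaredoxin and methionine repair genes 8 were higher and 2 lower. Srxn1 (SRXN1 in the table), the sulfiredoxin that restores overoxidized peroxiredoxins, had 308, 296 and 268 normalized counts in RCS cells, against 44.6, 37.4 and 33.5 in rib tissue (7.42-fold higher, log2 difference 2.89, SE 0.14, adjusted p = 5.84e-07; 3.87 with quantile normalization). Msrb2, the mitochondrial methionine sulfoxide reductase, had 34.7, 39.7 and 43 normalized counts in RCS cells, against 78.3, 79.8 and 83 in rib tissue (2.03-fold lower, log2 difference -1.02, SE 0.16, adjusted p = 0.000407), and lost its call under quantile normalization (-0.039, adjusted p = 0.849). Thioredoxin reductases, Gpx1 and Gpx4 are selenoproteins, and of 15 genes of the list for selenoprotein synthesis 4 were higher, 2 lower and 9 neither. That list also holds selenoproteins (Selenon, Selk, Selt, Sepw1 and Vimp) and the uptake receptor Lrp8, and Selt was among the higher and Selenon among the lower genes. Eefsec, the elongation factor that places selenocysteine, had 395, 336 and 321 normalized counts in RCS cells, against 134, 124 and 122 in rib tissue (2.74-fold higher, log2 difference 1.46, SE 0.11, adjusted p = 5.44e-06). Sephs1, a relative of selenophosphate synthetase, had 269, 283 and 316 normalized counts in RCS cells, against 487, 479 and 523 in rib tissue (1.72-fold lower, log2 difference -0.78, SE 0.089, adjusted p = 7e-05). The selenoproteins thus included genes on both sides, with Gpx1 nearly undetected and Txnrd1 higher.

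Of 23 other NRF2 target enzymes tested 10 were higher, 6 lower and 7 neither. Ptgr1, which reduces leukotrienes and reactive enals, had 184, 186 and 216 normalized counts in RCS cells, against 21.6, 28 and 18.4 in rib tissue (8.4-fold higher, log2 difference 3.07, SE 0.19, adjusted p = 1.78e-06; 4.31 with quantile normalization). Aldh3a1, an aldehyde dehydrogenase, had 0, 0 and 0 normalized counts in RCS cells, against 25.4, 47.9 and 32.6 in rib tissue (log2 difference -5.14, SE 0.31, adjusted p = 1.84e-06; -3.00 with quantile normalization and -8.42 with a pseudocount of 0.1). NRF2-linked genes therefore stood on both sides of the comparison. Of 23 oxidant sources tested 3 were higher and 15 lower, and 6 of the lower genes were at 0 in every RCS library. Cybb, the phagocyte NADPH oxidase, had 0, 0 and 0 normalized counts in RCS cells, against 173, 228 and 100.04 in rib tissue (log2 difference -7.31, SE 0.34, adjusted p = 4.16e-07; -6.06 with quantile normalization and -10.6 with a pseudocount of 0.1), beside macrophage markers that were called lower at 11 of 11. Duox2, an oxidase that releases hydrogen peroxide at the cell surface, had 826, 823 and 771 normalized counts in RCS cells, against 23.3, 33.7 and 45.8 in rib tissue (23.7-fold higher, log2 difference 4.57, SE 0.21, adjusted p = 4.48e-07; 5.66 with quantile normalization).

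Rib libraries varied more than RCS libraries at these genes. The median SD of log2 values over the 59 tested members was 0.0998 in RCS cells and 0.186 in rib tissue (3 libraries each), and the SD was larger in rib tissue at 38 of 59. The groups did not overlap at 49 members (83.1%; 78.9% of all genes tested). Of the 44 called members, 22 differed by less than 2-fold. In each alternative that tested them, 35 kept their direction and call: 23 of the 26 higher and 12 of the 18 lower. Quantile normalization and median scaling shifted the median of all genes upward (0.47 and 0.29), which works against calls of lower genes. The lower members that failed (GSTA6, Gpx8, Gstm4, Gstm6, Gstt3 and Txndc11) each did so under such a scaling. The higher members that failed (GSTA1, Txndc16 and Txndc17) did so only with a library left out. These counts therefore cannot show which direction was firmer, and shares over all genes are not given.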

How the data were processed

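RNA-seq libraries of RCS cells and neonatal rat rib (3 each) were grouped by their titles. The log2 values deposited by the authors form 1 table of 27217 genes. The table is labelled RPKM, but low values fell on steps shared between genes of a library, so they were taken as log2 of reads scaled by a library factor, with normalized counts of 1 or less listed as 0. The submitters' processing notes name CASAVA 1.8, DESeq and rn5 without saying what each did; how reads were aligned and counted, and whether strand was used, is not given in the sources used here. At up to 10 reads, between 38.7% and 55.6% of a library's values were whole within 0.01 (2% by chance), so no count model was used. No library pair was identical (0 pairs). Depth, an estimated 5320000 to 8520000 reads, limits the precision of low values.

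The test was limma 3.58.1 (R 4.3.3, two-sided, empirical Bayes with trend) on log2(normalized count + 1), for 16809 genes with at least 1 normalized count in at least 3 of 6 libraries. Every adjusted p is from limma with Benjamini-Hochberg adjustment over these genes, and a call is an adjusted p under 0.05. Folds use that scale, on which changes of low genes come out too small, and none is printed where a group averaged under 10. The script was tested on simulated data. Alternatives were quantile normalization, library median scaling, no filter, a filter of 10, a pseudocount of 0.1, a replicate block and leaving out each library.

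The members and lists were chosen with earlier results of these data known. Named by rule were NRF2, Hmox1, Nqo1, the glutathione synthesis genes, catalase and the dismutases, and per role group the highest mean and up to 3 called genes per direction with the largest non-overlapping difference; the other members were named to account for all. Per pathway list, the called gene with the largest difference in each direction was named, with Keap1, Slc7a11 and Srxn1; 1 further gene of that rule is not reported here. Same-numbered libraries did not deviate together. Of the 68 members, 55 matched RefSeq names by Entrez identifier and 11 by symbol. Entries listed under other symbols (Gsta3l1, Gstp3 and Mgst3l1) were not reached by the rule.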

Additional observations from a re-analysis of the deposited data

How the results depend on the processing

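Quantile normalization and library median scaling changed more of these values than the other alternatives did, and both shifted the median of all genes upward. Members at least 2-fold higher in RCS cells numbered 22 with quantile normalization and 18 with median scaling (9 as deposited), members at least 2-fold lower 8 with quantile normalization (13), and pathway genes called lower 32 with quantile normalization (50). Over the genes named by rule, 626 values under alternatives kept their direction and side of the threshold, 9 lost the call, 8 gained one and 5 changed sign. The sign changes were Hmox1 (0.20 with quantile normalization, 0.28 with median scaling, 0.23 without RCS replicate 1, 0.17 without rib replicate 2; -0.19 to 0.23 over all left-out libraries) and Sod2 (0.039 with median scaling). Leaving out 1 library gave 24 to 27 members higher and 17 to 19 lower, 8 to 10 and 12 to 15 past 2-fold, 43 to 50 pathway genes higher and 43 to 49 lower, and 4905 to 5540 genes higher and 6856 to 7306 lower in all. With replicate number as a block, 28 members were higher and 18 lower (5536 and 7340 genes in all), with Mgst2 (adjusted p = 0.0233) and Txn2 (0.0142) added. Deviations of same-numbered libraries correlated at 0.064, -0.076 and 0.047, within the range of differently numbered pairs (-0.19 to 0.16). With 3 libraries per group, these values cannot show whether same-numbered libraries shared a preparation or run. The cause of these changes was not tested. Low genes (under 10 normalized counts) are limited by depth, and a value of 0 is not absence.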

Other observations

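Chac1, which breaks down glutathione inside the cell, had 189, 159.7 and 144 normalized counts in RCS cells, against 19.6, 20.5 and 26.4 in rib tissue (7.13-fold higher, log2 difference 2.83). Its relative Chac2 was listed at 0 in all RCS libraries and had 24.9, 27.6 and 19.7 in rib tissue. Cyba, the partner chain of several NADPH oxidases, was likewise at 0 in every RCS library and had 129, 116 and 122 in rib tissue. Mgst3l1, listed in the table under an older symbol, was at 0 in RCS cells and at 4.55, 7.18 and 4.0 in rib tissue, the direction of Mgst3. These genes were picked after their values were seen.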
